A study of Homo sapiens with 12 samples.

Results

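The MYC and MAX network was examined in K562 cells, a chronic myeloid leukemia line with erythroid features, after treatment with the USP7 inhibitor FT671. Its 10 members were taken by gene symbol from a named set, MYC, MYCN, MYCL, MAX, MXD1, MXD3, MXD4, MXI1, MNT and MLX, out of 60609 genes listed in the count files. Of these, 9 had enough counts to be tested, out of 13895 genes tested in all. RNA was sequenced from 3 libraries of cells given the solvent DMSO and 3 libraries of cells given 10 μM FT671, all harvested at 48 h. The study describes the replicates as independent experiments. No genetic change separated the groups, and all 6 libraries came from one established line. FT671 blocks the deubiquitinase USP7, an enzyme that removes ubiquitin from other proteins.

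MAX is a small basic helix-loop-helix leucine zipper protein that pairs with itself and with every other member except MLX. The pairs bind DNA at E-boxes, whose best known form reads CACGTG. MYC, MYCN and MYCL need MAX to bind DNA and recruit histone acetyltransferases, so that MYC-MAX pairs activate genes of growth and ribosome production. MXD1, MXI1, MXD3, MXD4 and MNT compete for MAX and recruit the SIN3-histone deacetylase corepressor to the same sites, and MLX is a MAX-like partner that pairs with some of these repressors and with the glucose-sensing factors MLXIP and MLXIPL.

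The promoters of the members themselves were searched for the E-box, because the network binds that sequence. RefSeq promoters, taken from 250 bases before to 50 bases after each start on build GRCh38.p14, were read for 9 members with 12 promoters between them; the promoter of MYC was not read. CACGTG, a palindrome that reads alike on both strands, was present in 3 of the 9 members, MXD4, MNT and MLX, against 8.77% of all 27305 genes with a promoter in the table and 7.26% of the 35116 promoters. The related CACGCG, searched on both strands which cannot overlap a CACGTG, was present in a promoter of MXD3 and in one of MXI1, against 13.5% of all genes. The motif began 238 bases upstream of the start in MXD4, 193 bases upstream in MNT and 50 bases upstream in MLX. Shown here, 5′ to 3′ on the strand of each gene with CACGTG in capitals, are the 250 bases before the start of MXD4 (chr4:2262110-2262359, minus strand), 66 bases around the motif of MNT (chr17:2401218-2401283, minus strand) and of MLX (chr17:42567020-42567085, plus strand), and the 250 bases before one MXI1 start without either motif (chr10:110209981-110210230, plus strand).
MXD4: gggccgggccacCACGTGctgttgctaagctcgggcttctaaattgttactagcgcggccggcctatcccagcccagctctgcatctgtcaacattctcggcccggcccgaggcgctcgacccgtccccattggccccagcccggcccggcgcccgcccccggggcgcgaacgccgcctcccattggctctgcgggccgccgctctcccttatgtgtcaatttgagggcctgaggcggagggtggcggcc
MNT: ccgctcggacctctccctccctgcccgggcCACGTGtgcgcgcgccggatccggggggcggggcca
MLX: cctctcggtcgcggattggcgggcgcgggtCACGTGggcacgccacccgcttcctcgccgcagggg
MXI1: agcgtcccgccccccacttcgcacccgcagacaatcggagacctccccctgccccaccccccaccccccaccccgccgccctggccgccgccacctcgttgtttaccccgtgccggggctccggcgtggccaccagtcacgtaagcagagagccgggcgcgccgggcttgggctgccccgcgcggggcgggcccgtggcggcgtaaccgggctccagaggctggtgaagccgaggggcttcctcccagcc
MXD4 and MNT were lower after FT671, MLX had no called change, and MXI1 was higher, as described next. MYCL and MAX, whose promoters in the table held neither motif, were lower as well. Matching letters are a description of these windows, and binding was not measured.

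Of the 9 members tested, 5 fell and 2 rose after FT671 at an adjusted p under 0.05 in edgeR's quasi-likelihood test. MYC, its relative MYCL, the shared partner MAX and the repressor partners MXD4 and MNT fell, MXI1 and MXD3 rose, and MXD1 and MLX were not called. The contrast was broad, since 26.5% of all genes tested fell and 23.6% rose, 50.1% together, so 2 of 9 rising members lay near the share of all genes. All FT671 libraries lay below all DMSO libraries for the same 5 members, a separation that 30.3% of all genes showed, and above them for the same 2 members, a separation that 26.8% of all genes showed. The median log2 fold change of the 9 members was -0.49, beside -0.01 over all genes.

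**Figure D1:**
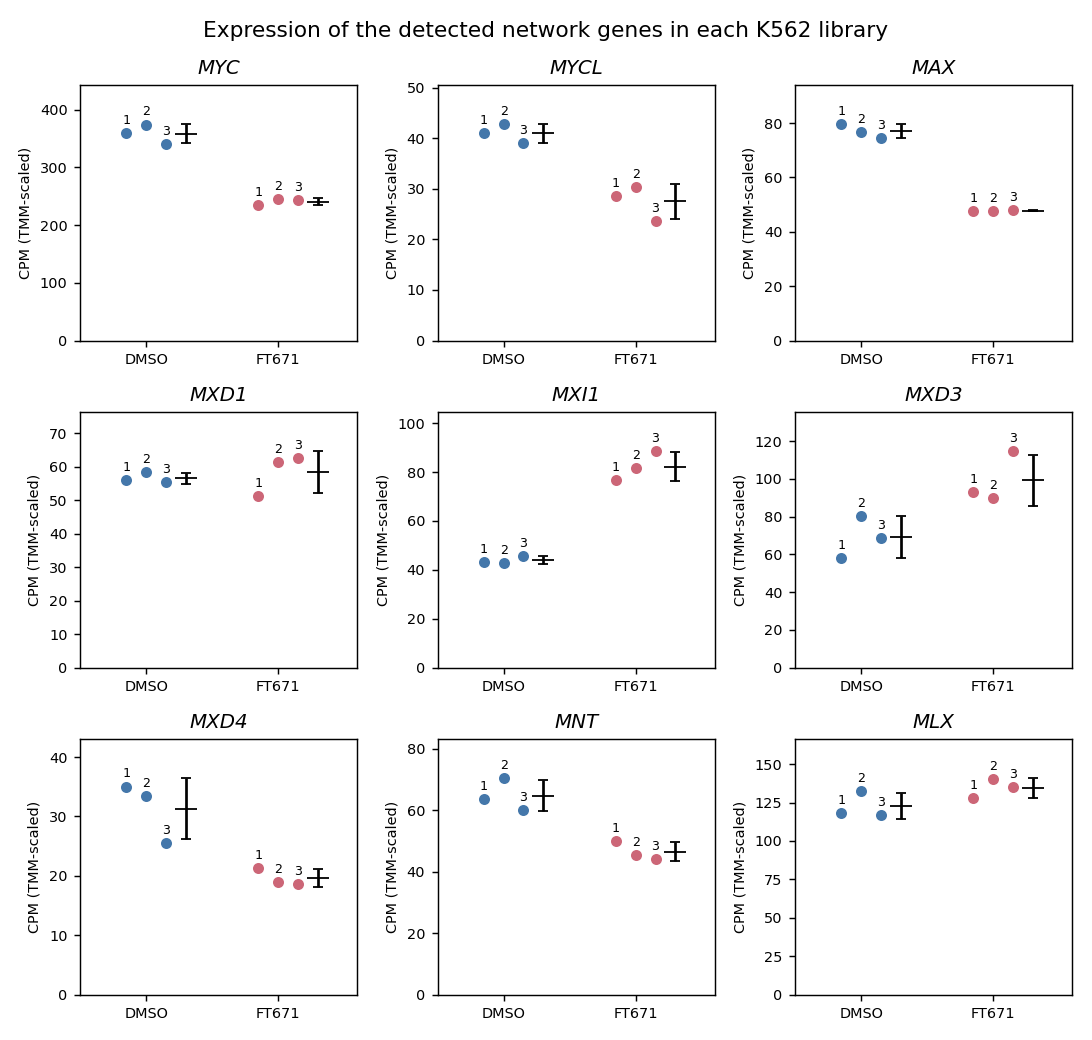
Level in CPM (counts scaled to a common library size) of the 9 tested network members in each of the 3 DMSO and 3 FT671 libraries of K562 cells, with 1 point per library and a line at each group's mean. MYC, MYCL, MAX, MXD4 and MNT separate downward after FT671, MXI1 and MXD3 separate upward, and the groups of MXD1 and MLX overlap.

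MYC (ENSG00000136997, chr8:127735434-127742951, plus strand) is the founding oncoprotein of the family and a driver of proliferation in leukemia. Its level in CPM, the counts scaled to a common library size, was 360.2, 374.2 and 340.7 in the DMSO libraries and 234.3, 244.6 and 243.4 in the FT671 libraries. Every FT671 library was well below every DMSO library, and the FT671 libraries lay close together. The mean fell from 358 ± 16.8 to 241 ± 5.64 CPM (mean ± SD, n = 3 each), giving a log2 fold change of -0.57 (SE 0.0683, 95% interval -0.72 to -0.43) with an edgeR adjusted p of 1.22e-05. DMSO cells thus held 1.49 times the MYC RNA of FT671 cells. In RNA of whole cultures a smaller number of cells expressing a gene and less of its RNA per cell cannot be told apart, and protein was not measured in these files.

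MYCL (ENSG00000116990, chr1:39895428-39902256, minus strand), the member first found in small cell lung cancer, was measured at 41.1, 42.8 and 39.0 CPM in DMSO and at 28.7, 30.3 and 23.7 CPM after FT671. The groups did not overlap, and FT671 replicate 3 was the lowest library. MYCL fell from 41.0 ± 1.89 to 27.5 ± 3.45 CPM (mean ± SD, n = 3 each), giving a log2 fold change of -0.60 (SE 0.113, 95% interval -0.84 to -0.35) with an edgeR adjusted p of 6.03e-04, so its decrease was of about the size of that of MYC. MYCN (chr2:15940550-15947007, plus strand), the member active in neuroblastoma and the developing nervous system, had 0 counts in all 6 libraries, as did its antisense RNA MYCNOS and the neighbouring MYCNUT. A count of 0 allows up to 3 counts, or 0.211 to 0.659 CPM depending on the depth of the library, for counting error only.

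Transcripts around the MYC family genes were read from a list of annotated neighbours. CASC11, a long noncoding RNA that starts on the strand opposite MYC and shares 194 exon bases with it, fell from 74.1 ± 4.13 to 45.2 ± 3.78 CPM (mean ± SD, n = 3 each; log2 fold change -0.70, SE 0.0941, adjusted p 3.69e-05). PVT1, the long noncoding RNA downstream of MYC, was not called (log2 fold change 0.027, 95% interval -0.15 to 0.20, adjusted p 0.804). MYCL-AS1, which lies within MYCL on the other strand and shares 226 exon bases with it, fell with a log2 fold change of -1.41 (SE 0.356, adjusted p 0.00453), but from only 3.05 to 1.28 CPM. The strand setting of the counting is not given in the sources used here, so reads on the shared bases cannot be assigned to one strand. Those bases are 3.18% of the exon bases of MYC, 3.77% of CASC11, 4.55% of MYCL and 28.8% of MYCL-AS1.

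MAX (ENSG00000125952, chr14:65006174-65102695, minus strand), on which both the activating and the repressing pairs depend, was measured at 79.7, 76.8 and 74.5 CPM in DMSO and at 47.5, 47.8 and 47.9 CPM after FT671. No member varied less between the FT671 libraries, and the groups were far apart. MAX fell from 77.0 ± 2.61 to 47.7 ± 0.196 CPM (mean ± SD, n = 3 each), giving a log2 fold change of -0.69 (SE 0.0831, 95% interval -0.87 to -0.51) with an edgeR adjusted p of 1.34e-05. MYC and MAX declined side by side: in TPM, a scale that takes the exon length of each gene into account, the MYC level was 4.63, 4.99 and 4.68 times that of MAX in the DMSO libraries and 5.05, 5.24 and 5.203 times after FT671. The ratio was slightly higher in each FT671 library than in any DMSO library. The difference between the fold changes of MYC and MAX was not tested. On the opposite strand MAX shares 822 exon bases with FNTB, a farnesyltransferase subunit (log2 fold change -0.57, adjusted p 0.0255), and 184 with the noncoding RNA ENSG00000259118 (-0.40, adjusted p 0.0493).

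The 5 repressor partners did not move together: MXI1 and MXD3 rose, MXD4 and MNT fell, and MXD1 was not called. MXI1 (ENSG00000119950, chr10:110207605-110287365, plus strand), a MYC antagonist also called MXD2, had the largest fold change of the 9 members. Its level was 43.1, 42.8 and 45.8 CPM in DMSO and 76.6, 81.6 and 88.6 CPM after FT671. The lowest FT671 library was far above the highest DMSO library. MXI1 rose from 43.9 ± 1.67 to 82.2 ± 6.004 CPM (mean ± SD, n = 3 each), which is 1.89-fold, with a log2 fold change of 0.92 (SE 0.0893, 95% interval 0.72 to 1.11) and an edgeR adjusted p of 2.18e-06. At a stricter adjusted p under 1e-05 in edgeR, MXI1 was the only member called, beside 4.13% of all genes that were lower and 1.79% that were higher at that level; MYC and MAX were just outside. MYC and MAX passed it under the DESeq2 Wald test (adjusted p 2.25e-11 and 6.58e-09), where 12.1% of all genes did. In edgeR they passed with the replicate number as a block (adjusted p 4.63e-06 and 9.61e-06), where 8.31% of all genes did. They also passed with the GC correction (adjusted p 7.25e-07 and 1.41e-06), where 13.8% of all genes did. With no filter on low counts 6 members passed, where 8.73% of all genes did, beside 5.92% in the main fit. The number varied with the libraries used too: without DMSO replicate 3, MYC, MYCL, MAX, MXD4, MXI1 and MNT passed, where 17.5% of all genes did, and without any one of the other libraries no member passed in edgeR, where 0.804% to 3.15% of all genes passed. At an adjusted p of 0.05 the 5 lower and 2 higher members were called without each library in turn.

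MXD3 (ENSG00000213347, chr5:177301461-177312757, minus strand), a member known from proliferating progenitor cells, was measured at 58.3, 80.5 and 68.6 CPM in DMSO and at 93.1, 89.7 and 114.7 CPM after FT671. Its libraries were more spread than those of MXI1 in both groups, but the groups did not overlap. MXD3 rose from 69.1 ± 11.1 to 99.1 ± 13.6 CPM (mean ± SD, n = 3 each), giving a log2 fold change of 0.53 (SE 0.121, 95% interval 0.27 to 0.79) with an edgeR adjusted p of 0.00228. Its reads are less certain than those of the other members, because 43.7% of its exon bases also belong to other genes. These are RAB24 on the same strand (926 bases; log2 fold change 0.33, adjusted p 0.138) and PRELID1 on the opposite strand, which was higher too (1148 bases; log2 fold change 0.48, adjusted p 2.44e-04). The part of these genes in the MXD3 counts was not tested.

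MXD4 (ENSG00000123933, chr4:2247432-2262109, minus strand), the family member associated with differentiated and resting cells, was measured at 35.0, 33.4 and 25.5 CPM in DMSO and at 21.3, 18.9 and 18.7 CPM after FT671. DMSO replicate 3 was the lowest of its group and still above every FT671 library. MXD4 fell from 31.3 ± 5.10 to 19.6 ± 1.45 CPM (mean ± SD, n = 3 each), giving a log2 fold change of -0.71 (SE 0.131, 95% interval -0.99 to -0.43) with an edgeR adjusted p of 4.97e-04, the lowest fold change among the members.

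MNT (ENSG00000070444, chr17:2384073-2401104, minus strand), the broadly expressed repressor of the family, was measured at 63.8, 70.4 and 60.3 CPM in DMSO and at 49.97, 45.5 and 44.3 CPM after FT671. The groups did not overlap, and their nearest libraries were FT671 replicate 1 and DMSO replicate 3. MNT fell from 64.8 ± 5.17 to 46.6 ± 2.98 CPM (mean ± SD, n = 3 each), giving a log2 fold change of -0.49 (SE 0.0957, 95% interval -0.69 to -0.28) with an edgeR adjusted p of 7.80e-04. An unnamed noncoding RNA on the opposite strand, ENSG00000262456, shares 1065 exon bases with MNT and fell as well (log2 fold change -0.58, adjusted p 0.00417), a call lost with all libraries thinned to the smallest total (adjusted p 0.0954).

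MXD1 (ENSG00000059728, chr2:69897688-69942945, plus strand), a repressor induced during myeloid differentiation, was measured at 56.0, 58.4 and 55.5 CPM in DMSO and at 51.3, 61.5 and 62.7 CPM after FT671. The FT671 libraries lay on both sides of the DMSO libraries. The log2 fold change was 0.055 (SE 0.0958, 95% interval -0.15 to 0.26, adjusted p 0.660), an interval that leaves room for a small change either way. MXD1 shares 237 exon bases on its own strand with the splicing factor gene SNRNP27, which rose (log2 fold change 0.51, adjusted p 7.02e-04).

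MLX (ENSG00000108788, chr17:42567072-42573239, plus strand), the partner that links the repressors to the glucose-sensing factors, was measured at 118.4, 132.4 and 117.0 CPM in DMSO and at 127.7, 140.5 and 134.8 CPM after FT671. The groups overlapped, because DMSO replicate 2 was above FT671 replicate 1. The means were 122.6 ± 8.49 and 134 ± 6.43 CPM (mean ± SD, n = 3 each), and the log2 fold change of 0.13 (SE 0.0781, 95% interval -0.036 to 0.30) had an adjusted p of 0.179. With the counts corrected for GC content, MLX was called higher (log2 fold change 0.21, adjusted p 0.0126). MLX shares 775 exon bases with PSMC3IP on the opposite strand, a recombination factor gene that rose (log2 fold change 0.36, adjusted p 0.00596).

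**Figure D2:**
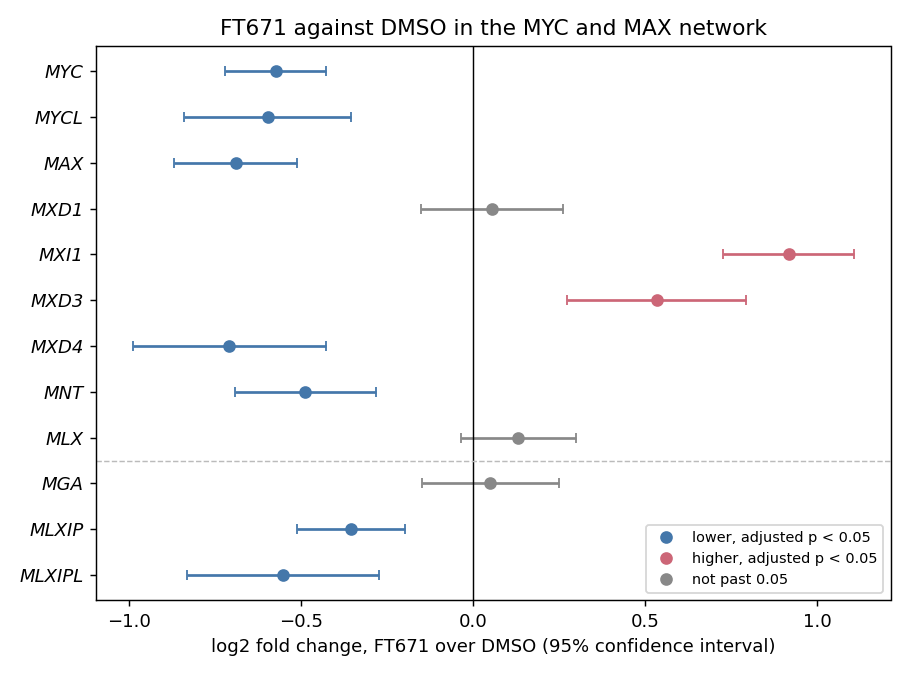
Log2 fold change of FT671 over DMSO for the 9 tested members and for MGA, MLXIP and MLXIPL, from edgeR, with 95% intervals as bars and 0 marked. The intervals of MYC, MYCL, MAX, MXD4 and MNT lie wholly below 0 and those of MXI1 and MXD3 wholly above it, while those of MXD1, MLX and MGA cross it.

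Of the 3 further genes of the extended network, 2 fell, beside 26.5% of all genes that fell and 50.1% that were called either way. MLXIP, also called MondoA, fell from 223 ± 6.74 to 174 ± 11.6 CPM (mean ± SD, n = 3 each; log2 fold change -0.36, SE 0.0733, adjusted p 0.00114), and MLXIPL, also called ChREBP, from 26.2 ± 3.60 to 17.9 ± 1.80 CPM (log2 fold change -0.55, SE 0.130, adjusted p 0.00286). MGA, a large MAX partner that belongs to the PRC1.6 Polycomb complex, was not called (160 ± 22.6 and 165 ± 3.28 CPM, log2 fold change 0.049, adjusted p 0.685). Thus both factors that pair with MLX fell while MLX itself was not called. The difference between those fold changes was not tested.

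Levels of different members were compared per unit of exon length, in TPM. In DMSO cells MYC was the most abundant member at 195 TPM (192.7 to 197.6), followed by MLX at 95.8, MXD3 at 48.5, MAX at 41.0, MXD1 at 29.7, MYCL at 27.4, MXI1 at 24.8, MNT at 24.8 and MXD4 at 15.1. MXD3 and MAX overlapped in their libraries, as did MXI1 with both MYCL and MNT, and the other neighbours in that order did not. After FT671 the order became MYC at 126 TPM (121.6 to 128.9), MLX at 101, MXD3 at 66.9, MXI1 at 44.6, MXD1 at 29.5, MAX at 24.4, MYCL at 17.7, MNT at 17.1 and MXD4 at 9.14. Only MYCL and MNT overlapped among the neighbours in that second order. MXI1 moved from the seventh to the fourth place, and MAX from the fourth to the sixth.

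The make-up of the network RNA shifted away from MYC. MYC held 39.7%, 38.4% and 38.6% of the summed TPM of the 10 members in the DMSO libraries and 29.2%, 29.2% and 28.3% in the FT671 libraries. The share of MAX went from a mean of 8.16% to 5.60%, while that of MXI1 went from 4.94% to 10.2% and that of MXD3 from 9.63% to 15.3%. MLX held 19.1% and then 23.2%, although its own level was not called as changed, and the summed TPM of the network was smaller after FT671.

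**Figure D3:**
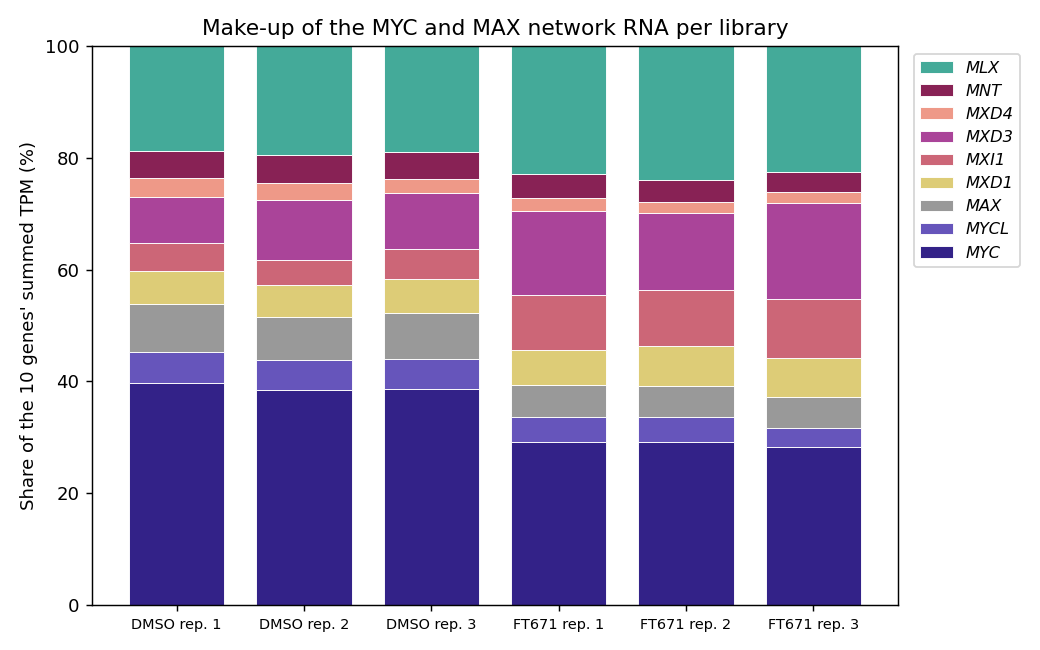
Share of the summed TPM of the network held by each member, in percent, in each of the 3 DMSO and 3 FT671 libraries, stacked to 100% of the members' sum. The MYC share is 38.4% to 39.7% in DMSO and 28.3% to 29.2% after FT671, and the MXI1 and MXD3 shares are wider in every FT671 library.

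By role, the MYC family (MYC and MYCL) summed to 223 ± 2.87 TPM in DMSO and 144 ± 4.35 TPM after FT671 (mean ± SD, n = 3 each), and the 5 repressor partners to 143 ± 8.15 and 167 ± 13.4 TPM. The repressor partners thus made up 0.607, 0.664 and 0.654 times the level of the MYC family in the DMSO libraries and 1.12, 1.09 and 1.27 times in the FT671 libraries. The sum of the repressors was below that of the MYC family in every DMSO library and above it in every FT671 library. Computed on CPM the mean ratios were 0.666 and 1.14, and with the length of the longest transcript they were 0.683 and 1.27. These ratios describe RNA levels of the members and were not tested as a score. Without MXD3, whose exons are shared with other genes, the ratio was 0.425, 0.421 and 0.426 in the DMSO libraries and 0.677, 0.682 and 0.733 in the FT671 libraries. The sum without MXD3 thus stayed below the MYC family in every library, and the ratio was still higher in each FT671 library than in any DMSO library.

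The genes with the pattern most like that of MYC were found by Pearson's r of log2 CPM over the 6 libraries, among 13865 genes. Among the highest were SOCS2, a suppressor of cytokine signalling (r = 0.9991, log2 fold change -0.57), ATP8B4, a phospholipid flippase (r = 0.9987, -2.02), SDHAF2, an assembly factor of succinate dehydrogenase (r = 0.9985, -1.36), and the noncoding RNA BCAN-AS1 (r = 0.9984, -2.33). These 4 genes were called lower, a direction that follows from choosing them for likeness to MYC. High values were common, since the 6 libraries fall into 2 treatment groups and 1369 genes, 9.87%, had r above 0.95.

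Lists of genes that work with the network were read from the same fit. Among 20 MYC cofactors, 9 fell and 5 rose, with a median log2 fold change of -0.15. That is 45% lower beside 26.5% of all genes, and 25% higher, near the 23.6% of all genes. The fallers with the lowest fold changes were the acetyltransferase KAT2B (log2 fold change -0.97, adjusted p 8.42e-05), the scaffold TRRAP, which docks acetyltransferase complexes on MYC (296.7 ± 23.7 to 196.4 ± 5.59 CPM, mean ± SD, n = 3 each; -0.59, adjusted p 2.19e-05), and PAF1 of the elongation complex (-0.55, adjusted p 1.98e-04). The acetyltransferase KAT2A rose (30.8 ± 5.17 to 59.6 ± 7.25 CPM; 0.93, adjusted p 3.75e-05), as did the paired ATPases RUVBL1 (0.59, adjusted p 1.04e-05) and RUVBL2 (0.41, adjusted p 8.09e-04). KAT2A and KAT2B, paralogs that serve as alternative subunits of the same acetyltransferase complexes, changed in opposite directions. Without FT671 replicate 2 or without FT671 replicate 3 the count of cofactors called lower was 5.

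The SIN3 complex is the corepressor that the MXD proteins and MNT recruit. Of 18 genes listed with SIN3, among them the corepressor NCOR1, 5 fell and 5 rose. That is 27.8% each way, near the 26.5% and 23.6% of all genes, and the median log2 fold change was 0.083. The scaffold SIN3A fell from 142.6 ± 10.4 to 91.4 ± 4.64 CPM (mean ± SD, n = 3 each; log2 fold change -0.63, adjusted p 2.31e-05), the deacetylase HDAC1 fell (-0.53, adjusted p 4.92e-05), and SAP30L had the lowest fold change (-1.41, adjusted p 1.60e-05). The histone-reading subunits ING1 (0.61, adjusted p 0.00134) and ING2 (0.56, adjusted p 0.00393) and the histone chaperone RBBP7 (0.51, adjusted p 5.22e-05) rose. Without FT671 replicate 1, 2 or 3, or without DMSO replicate 1, the count called higher was 3. It was also 3 with scaling by library totals alone, under the DESeq2 Wald test, with no filter on low counts and with thinning. With correction for gene length or GC content it was 7 or 8.

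Of 19 enzymes that control the stability or phosphorylation of MYC proteins, 7 fell and 2 rose, which is 36.8% and 10.5% beside 26.5% and 23.6% of all genes, with a median log2 fold change of 0.050. USP7, the target of the inhibitor, fell from 119 ± 12.3 to 33.1 ± 3.38 CPM (mean ± SD, n = 3 each), giving a log2 fold change of -1.82 (SE 0.104, edgeR adjusted p 2.66e-08). The ubiquitin ligase subunit BTRC (-1.14, adjusted p 6.23e-06) and the deubiquitinase USP22 (275.2 ± 1.24 to 140.5 ± 8.18 CPM; -0.97, adjusted p 1.66e-07) fell too. The kinase PIM2 rose (0.43, adjusted p 1.64e-04), and so did the large ligase HUWE1 (0.24, adjusted p 0.0140). The count called higher was 1 without DMSO replicate 1 or without FT671 replicate 3, where HUWE1 was not called, and between 5 and 7 with correction for gene length or GC content.

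Genes known as MYC-activated targets mostly rose, while MYC, MYCL and MAX fell. Of 62 tested, 38 rose and 12 fell, which is 61.3% and 19.4% beside 23.6% and 26.5% of all genes, and the median log2 fold change was 0.42. Many of the listed genes serve nucleolar ribosome assembly, among them RRP9, a pre-ribosomal RNA processing factor that rose from 29.0 ± 1.95 to 76.3 ± 7.70 CPM (mean ± SD, n = 3 each; log2 fold change 1.38, SE 0.102, adjusted p 1.79e-07). EIF4A1, a translation initiation helicase, and TERT, the catalytic subunit of telomerase, had higher fold changes at low levels (1.27 to 4.27 CPM, adjusted p 7.54e-05, and 1.41 to 3.89 CPM, adjusted p 0.00140). For EIF4A1, 47.4% of the exon bases are shared with other genes, 2187 of them with ENSG00000264772 on the same strand. Its CPM is therefore less certain as a measure of its level. The lowest fold changes were those of UBTF, a factor of ribosomal RNA transcription (193 ± 1.97 to 94.5 ± 4.01 CPM; -1.03, adjusted p 1.20e-07), SLC2A1, a glucose transporter (-0.72, adjusted p 9.32e-06), and E2F2, a cell cycle factor (-0.72, adjusted p 9.37e-05). The 9 other fallers, named here after their values were seen, were CAD, ODC1, AMD1, SHMT2, FASN and TFRC of metabolism and iron uptake and CCND2, E2F1 and TFAP4 of transcription and the cell cycle.

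Of 17 genes that MYC is known to repress, 8 rose and 3 fell, which is 47.1% and 17.6% beside 23.6% and 26.5% of all genes, with a median log2 fold change of 0.26. The stress genes GADD45A and GADD45B and the phosphatase DUSP1 had the highest fold changes. GADD45A went from 69.4 ± 7.64 to 197.6 ± 0.618 CPM (mean ± SD, n = 3 each; log2 fold change 1.499, adjusted p 2.64e-08), DUSP1 from 45.1 ± 3.39 to 97.6 ± 4.58 CPM (1.10, adjusted p 3.07e-07), and GADD45B from 1.37 to 5.71 CPM (2.03, adjusted p 4.72e-05). The antiproliferative genes BTG2 (-1.04, adjusted p 2.86e-06) and BTG1 (-0.86, adjusted p 1.11e-05) and the growth inhibitor TSC2 (-0.32, adjusted p 0.00299) fell. The number of repressed targets called lower was 6 without DMSO replicate 3 and 5 without FT671 replicate 2, and the number called higher was 5 without DMSO replicate 1.

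Of 8 known targets of the MLX partners MLXIP and MLXIPL, 2 fell and 3 rose, which is 25% and 37.5% beside 26.5% and 23.6% of all genes. ARRDC4, an arrestin-like regulator of glucose uptake, fell from 1.82 ± 0.137 to 0.746 ± 0.259 CPM (mean ± SD, n = 3 each; log2 fold change -1.45, adjusted p 0.00592). Its raw counts, not scaled to library size, were 27, 21 and 9 in the DMSO libraries and 4, 5 and 5 in the FT671 libraries. The fatty acid synthase gene FASN fell from 525 ± 11.2 to 412 ± 31.1 CPM (mean ± SD, n = 3 each; -0.35, adjusted p 0.00101). PKLR, a pyruvate kinase (0.45, adjusted p 8.58e-04), and ACACA, which makes malonyl-CoA (0.35, adjusted p 0.00197), rose. TXNIP, the best known MLXIP target and a paralog of ARRDC4, rose by a log2 fold change of 0.31 (adjusted p 0.0367), a call lost when any one library except DMSO replicate 3 was left out (log2 fold change 0.24 to 0.34, adjusted p 0.0543 to 0.174). ARRDC4 was not called without FT671 replicate 3 (log2 fold change -1.03, adjusted p 0.0804) or under the DESeq2 Wald test (-1.38, adjusted p 0.0876). Without DMSO replicate 1 or without DMSO replicate 2 it was not among the genes tested.

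The libraries held between 4555220 and 14250500 counts, of which 94.9% to 95.3% lay in protein-coding genes. The spread between replicates exceeded that of counting: chi-square over its degrees of freedom was 2.07 to 3.20 for pairs of FT671 libraries, 2.94 for DMSO replicates 1 and 2, but 7.55 and 8.73 for the pairs with DMSO replicate 3, which stood apart. Erythroid and K562 markers were present, with all 12 above 0 counts in every library. In DMSO replicate 3, 11 of them had more than 3 counts, the detection floor, and HBE1 was at 0.37 CPM. HBE1 was not tested, and 90% of its exon bases are shared with other genes. The summed level of the 12 markers was 1464 to 1478 CPM in DMSO and 1276 to 1319 CPM after FT671. Of 11 tested, 7 fell and 4 rose. Of 12 markers of other blood cells, MS4A1 and CD34 were at 0 in every library and 4 were tested, of which 2 rose; their summed level, mostly from PTPRC, LYZ and CD3D, was 156.4 to 185 CPM in DMSO and 201.4 to 211.8 CPM after FT671. The part of these marker shifts in the network values was not tested.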

How the data were processed

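Total RNA of K562 cells was depleted of ribosomal RNA (KAPA HyperPrep with RiboErase) and sequenced, and for each library the authors deposited raw counts per gene, made with STAR on hg38. The version, annotation release and strand setting are not given in the sources used here, and the ChIP-seq samples of the series were not analysed here. Identifiers, without version, were matched to GENCODE 44 (60295 of 60609; the 314 unmatched held 0.0609% of counts) for symbols, positions and exon length.

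Genes passing filterByExpr (13895) were tested with edgeR 4.0.16 (R 4.3.3; TMM scaling, quasi-likelihood test, Benjamini-Hochberg adjustment over all genes tested), 3 FT671 against 3 DMSO libraries, with no covariate. The biological coefficient of variation was 0.0832. SE and 95% intervals came from the same fit. CPM used TMM library sizes, and TPM divided counts by the union of exons. A count of 3 was taken as the detection floor, and this floor covers counting error only.

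The members and gene lists were chosen with earlier results of these data known. Text was given to all members, genes overlapping them and, per list, up to 3 genes with the lowest and 3 with the highest fold change among those called, with separate groups and a mean CPM of 1 or more. For likeness to MYC the 5 genes with the highest r were taken, of which 1 is not reported here. No list was tested as a set. RefSeq promoters were searched with Python 3.11.15. Alternatives were DESeq2 1.42.0, other scalings and filters, a replicate block, loess corrections for gene length and GC content (span 0.3), thinning, and leaving out each library. The fitting code was tested on simulated data.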

Additional observations from a re-analysis of the deposited data

How the results depend on the processing

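Over 17 alternative settings, MYC, MYCL, MAX, MXD3, MXD4, MXI1 and MNT kept their direction and their call. Their log2 fold changes ranged from -0.615 to -0.464 for MYC, -0.729 to -0.576 for MAX and 0.856 to 1.02 for MXI1. MXD1, uncalled throughout, was at -0.00023 without FT671 replicate 3 (up to 0.135 with other libraries left out). MLX gained a call with correction for GC content (0.209), for GC content with the replicate block (0.205) and for gene length with the replicate block (0.178). The deviations of same-numbered libraries from their group means had r of 0.115, -0.0605 and 0.14. For libraries with different numbers r was -0.168 to 0.125. The main fit did not read the numbers as pairs, and pairing was not tested. Under the replicate block MYC was at -0.572, MAX at -0.687 and MXI1 at 0.903, and no member's call at 0.05 changed. With that block MYC and MAX joined MXI1 past 1e-05 (3 members), where 8.31% of all genes passed. Uncalled non-members changed sign: MGA was at -0.0494 without DMSO replicate 2 (up to 0.132 without another library), and PVT1 at -0.00627 with library totals alone, -0.0115 without the filter on low counts, -0.0142 without DMSO replicate 3 and -0.0106 without FT671 replicate 3 (up to 0.0859 without another library). TXNIP lost its call in 10 of 17 settings, ENSG00000259118 in 9 and FNTB in 4. MYCL-AS1 lost its call without FT671 replicate 3 (-0.892), ENSG00000262456 with thinning (-0.407), and ARRDC4 without FT671 replicate 3 (-1.03) and under the DESeq2 Wald test (-1.38). Leaving MXD3 out of the repressor sum, an alternative chosen after seeing the data, gave mean ratios to the MYC family of 0.424 in DMSO and 0.697 after FT671, against 0.642 and 1.16 with it. Over all genes, 53% of calls were lower, against 46.4% with the gene length correction and 56.9% with library totals alone, and leaving out one library gave 2972 to 4100 lower and 2522 to 3830 higher calls. Among MYC-activated targets 34 to 44 were called higher and 11 to 14 lower over all settings. The smallest library had 4555220 counts, so genes near 1 CPM, such as ARRDC4 and GADD45B, rest on few counts.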
